A study of Homo sapiens with 4 samples.

Results

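The genes examined here build heparan sulfate, a sulfated sugar chain on cell-surface and matrix proteins, and comprised 10 of the 19970 protein-coding genes annotated on chromosomes 1 to 22 and X. EXT1 was chosen by a measured value, its stitched cluster of H3K27ac peaks in Hs578T, which was picked as the longest there. The values behind that choice are described below without a test; by covered bases the cluster came first when both Hs578T lists were joined, and by span it did not. The other 9 members, EXT2, EXTL2, EXTL3, NDST1, HS6ST1, GPC1, GPC6, SDC1 and SDC4, were added by gene name as parts of the same pathway. For each member, peaks were taken within 1 kb of the canonical start site and within the gene body extended by 100 kb on either side.

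Heparan sulfate is assembled in the Golgi on serine residues of core proteins. A short linkage region is built first, a complex of EXT1 and EXT2 then extends the chain, and sulfotransferases modify it in patches that bind growth factors, chemokines and matrix proteins. The chains are carried at the cell surface mainly by syndecans, which span the membrane, and glypicans, which are held by a lipid anchor. Histone H3 acetylated at lysine 27 (H3K27ac) is found at active promoters and enhancers.

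H3K27ac was measured by chromatin immunoprecipitation and sequencing in MDA-MB-231 and Hs578T, established human cell lines of triple-negative breast cancer with mesenchymal features, with 2 replicate libraries per line. Cells of all 4 libraries were serum-starved for 8 h, given 10 ng/ml TWEAK (the ligand of the receptor Fn14) for 48 h, and, by the series' design text, kept without it for 72 h. The study's paper gives another wash-off time, and the difference could not be settled here. No library of untreated cells, or of cells collected during TWEAK exposure, entered the comparison, and the values below describe the washed-off state alone.

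The libraries stood apart mainly by list size. The list of MDA-MB-231 replicate 1 held 209 peaks on these chromosomes, whereas MDA-MB-231 replicate 2 held 43353, Hs578T replicate 1 held 46330 and Hs578T replicate 2 held 44920. The last 3 are called the large lists, and values are given in that order unless stated. Over the loci of all protein-coding genes, the share of covered bases held in common (Jaccard index, bases covered in both lists divided by bases covered in either) was 0.771 and 0.760 between MDA-MB-231 replicate 2 and the Hs578T lists, and 0.780 between the Hs578T lists. The pair within Hs578T was thus only slightly more alike than the pairs across lines, and the line label of MDA-MB-231 replicate 2 could not be checked from them. Promoter peaks were found at 6, 7 and 6 of 7 mesenchymal markers, at 1 of 7 luminal and epithelial markers in every large list (ERBB3), and at 0 of 5 leukocyte and other tissue markers. Fold enrichment is relative to the background of its own library, so its size is compared only within a list.

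H3K27ac marked the start sites of 8 of the 10 members in each of the 3 large lists: EXT1, EXT2, EXTL2, EXTL3, GPC1, GPC6, SDC1 and SDC4. NDST1 and HS6ST1 had no peak within 1 kb of the canonical start site in any list. Over all protein-coding genes, 58.1%, 58.2% and 56.4% had such a peak, and the 95% Wilson interval of 8 of 10 was 49.0% to 94.3%, so the members' share was not separable from the background. In MDA-MB-231 replicate 1, 0 of 10 members had a promoter peak (upper Wilson bound 27.8%) against 0.0601% of all genes. A peak anywhere in the gene or its 100 kb flanks was present for 10 of 10 members in each large list, against 91.7%, 91.9% and 91.7% of all genes, and for 0 of 10 in MDA-MB-231 replicate 1, against 2.54%.

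**Figure D1:**
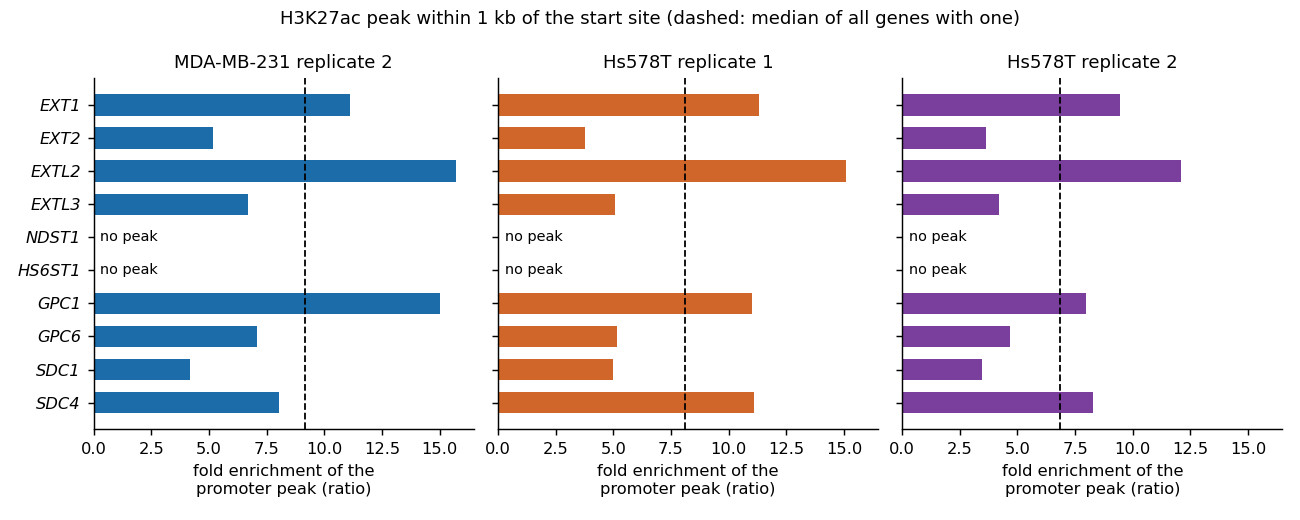
Fold enrichment (ratio over local background) of the strongest H3K27ac peak within 1 kb of the start site of each member, 1 panel per large list, with the median over all genes with such a peak as a dashed line. EXTL2, EXT1 and GPC1 lie above the median in every panel, EXT2, EXTL3, GPC6 and SDC1 below it, and NDST1 and HS6ST1 have no bar.

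GC-rich sequence lay before the start site of a marked and of an unmarked member. GPC1, marked in every large list, and HS6ST1, marked in none, are shown for this contrast. These are the 250 bases upstream of each RefSeq start site (GRCh38.p14), read 5′ to 3′ on the gene's strand, with GC boxes (GGGCGG or its complement CCGCCC, the letters bound by Sp factors) in capitals. GPC1 lies on the plus strand at chr2:240435413-240435662 and HS6ST1 on the minus strand at chr2:128318869-128319118.
GPC1: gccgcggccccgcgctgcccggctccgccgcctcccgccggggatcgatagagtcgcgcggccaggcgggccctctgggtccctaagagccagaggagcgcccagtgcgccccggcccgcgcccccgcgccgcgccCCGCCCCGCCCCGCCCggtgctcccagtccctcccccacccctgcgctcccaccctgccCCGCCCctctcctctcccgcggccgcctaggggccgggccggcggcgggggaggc
HS6ST1: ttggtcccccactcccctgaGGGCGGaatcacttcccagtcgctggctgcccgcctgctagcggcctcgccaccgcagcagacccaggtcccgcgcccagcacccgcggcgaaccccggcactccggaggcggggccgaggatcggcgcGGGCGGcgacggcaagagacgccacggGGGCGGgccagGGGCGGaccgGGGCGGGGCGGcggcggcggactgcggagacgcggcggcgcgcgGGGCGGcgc

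GPC1 held 4 GC boxes in this stretch and HS6ST1 held 7. Over the whole 300-base promoter (250 before and 50 after the start), the GC content was 83.3% for GPC1 and 79.7% for HS6ST1, against a median of 63.0% over 15315 protein-coding genes. The ratio of observed to expected CpG was 0.894 for GPC1 and 1.00 for HS6ST1. A GC box was present in 6 of the 8 members matched in the RefSeq table (EXTL2, NDST1, HS6ST1, GPC1, SDC1 and SDC4). Of the 15315 protein-coding genes 59.2% held one, and of all 27195 promoters 44.7%. A GC box was present in 71.8% of 8931 promoters marked in all large lists and in 39.2% of 5840 marked in none. EXT2 and GPC6, the matched members without a GC box, held TATAAA (searched on both strands). It was held by 9.64% of protein-coding genes and 12.0% of all promoters. EXT1 and EXTL3 had no entry. The RefSeq start of NDST1 lies 10352 bp from the canonical start used for its promoter call, inside a region called in all large lists.

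EXT1 encodes the glycosyltransferase that, together with EXT2, adds the alternating sugars of the chain. It lies on the minus strand of chromosome 8 (hg38 117794490 to 118111826, ENSG00000182197.13) and is 317 kb long, of which the first of 10 introns takes 273 kb. Its promoter peak ran from about 2 kb before to over 4 kb into the gene and was 6778, 6563 and 6637 bp wide, at percentiles 95.9, 94.5 and 95.8 of width among genes with a promoter peak. The fold enrichment of that peak was 11.1, 11.3 and 9.46, at percentiles 62.7, 70.9 and 71.7. The start of EXT1 thus carried a wide peak of moderate height in every large list.

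Most of the acetylated sequence at EXT1 lay inside the gene. The locus held 36, 33 and 35 peaks that covered 117022, 138266 and 121592 bp (mean 125627 ± 11182, SD, n = 3 lists). Of these bases, 88.7%, 86.0% and 86.5% fell in intron 1. The 100 kb beyond the 3′ end held no covered base, the 100 kb before the start site held 3718, 4590 and 3809 bp, and the window contained the start site of no other protein-coding gene.

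In covered bases, EXT1 ranked 3rd, 2nd and 6th of 19970 genes and 3rd by the mean over the large lists. AOPEP, with a mean of 158317 bp, and ENSG00000258989, with 126634 bp, came next above, and CRIM1 (123820 bp), SMAD3 (118335 bp) and MICAL2 (118032 bp) next below. Compared list by list, the order of EXT1 against ENSG00000258989, CRIM1 and SMAD3 changed between lists, so it is not resolved. MICAL2 lay below EXT1 in every large list (110239, 124321 and 119536 bp), by less than the SD over lists at EXT1 in the mean. A long gene has a large window, but within the gene itself peaks covered 35.7%, 42.1% and 37.1% of EXT1. This placed it 11th, 12th and 13th of 3661 genes of 100 kb or longer, whose medians were 1.72%, 1.92% and 1.78%. These ranks describe a gene that was picked for related values and are not tested.

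The strongest acetylation at EXT1 was not at its start site. A region of intron 1 lay 84.8 to 114 kb from the start site. It held a single peak 23853, 23813 and 24353 bp wide, beside a narrower one. The fold enrichment of the wide peak was 17.6, 16.6 and 15.2. A second wide region lay at 151 to 176 kb, with a highest fold of 12.6, 6.55 and 7.30, and covered 19165, 23895 and 19785 bp. Further regions at 121 to 135 kb (9.70, 5.87 and 7.34), at 198 to 207 kb (9.48, 6.14 and 6.17), at 260 to 267 kb (12.0, 10.4 and 9.62) and at 293 to 302 kb (10.1, 7.40 and 7.36) were called in all large lists. The last of these lies past intron 1, in the part of the gene that holds the other exons.

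**Figure D2:**
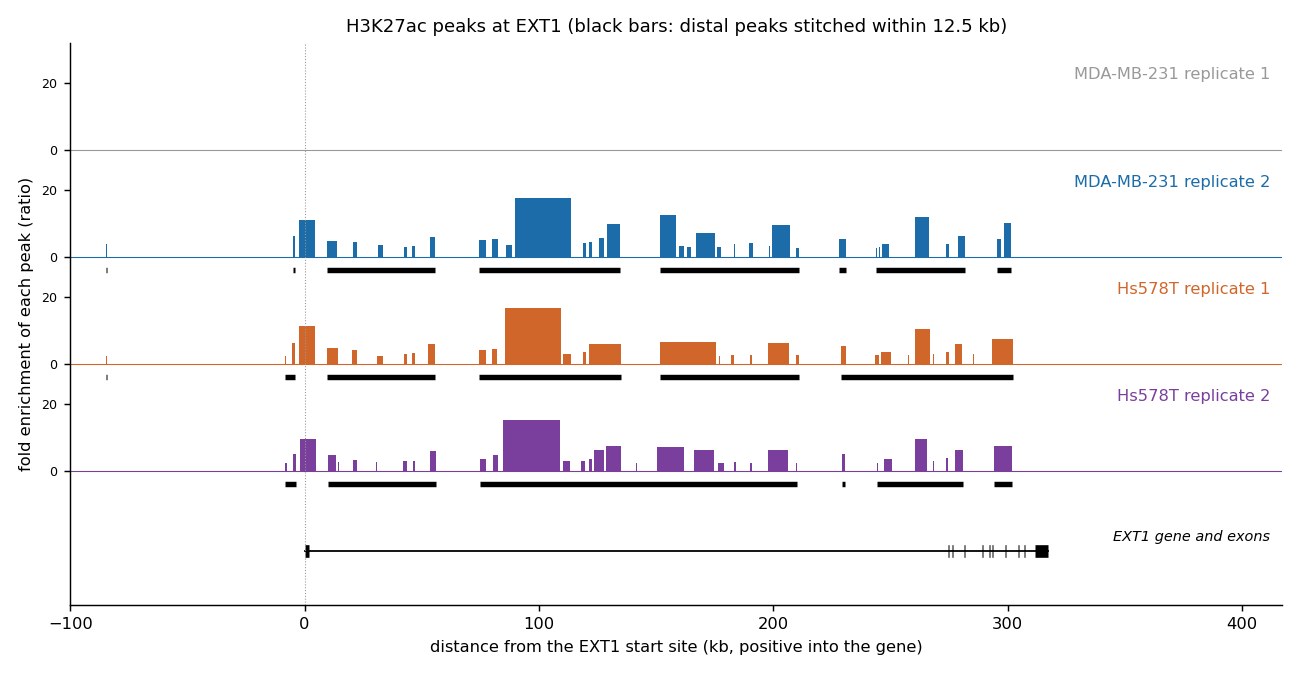
H3K27ac peaks along EXT1, with distance from its start site in kb on the x axis and the fold enrichment of each peak (ratio) as bar height, 1 row per library, and stitched clusters of distal peaks as black bars. The 3 large lists share the tall wide peak at about 85 to 114 kb, MDA-MB-231 replicate 1 has no peak, and only in Hs578T replicate 2 does a single cluster run from 74.9 to 210 kb.

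Of the 34 separate regions at EXT1, 26 were called in all 3 large lists, and no genome-wide share was computed to set beside this. The other 8 were weak, with a highest fold of 3.91, and covered little sequence: 2 were shared by the Hs578T lists, 1 by MDA-MB-231 replicate 2 and Hs578T replicate 1, and single lists held 1, 2 and 2. No region with a fold above 3.91 was missing from a large list.

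The rank of the EXT1 cluster depended on how lists were joined and on whether span or covered bases were counted. Distal peaks lay over 2.5 kb from the canonical start site of every annotated gene. Peaks at other start sites of a gene could thus count as distal, here and in the motif counts below. The region at the RefSeq start of NDST1 was such a case. Distal peaks were stitched when no more than about 13 kb apart, the distance commonly used for super-enhancers. Stitching the peaks of both Hs578T lists together gave an EXT1 cluster of 136 kb in which the lists covered 84482 and 78632 bp (mean 81557 ± 4137, SD, n = 2). By mean covered bases this was the first of 21169 clusters, and the next, over NRP1, had 81614 and 67521 bp (mean 74568 ± 9965). By span it was not the longest, since the NRP1 cluster reached 159 kb and that over PRAG1 146 kb. The means of EXT1 and NRP1 differed by less than the SD of the NRP1 cluster. Stitched within each list, the main EXT1 cluster spanned 59872, 60637 and 135240 bp (mean 85250 ± 43295, n = 3) and covered 41745, 47640 and 78632 bp. By covered bases it then ranked 13th, 10th and 1st.

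A single weak peak lay in the gap that parted the clusters of the other lists. In Hs578T replicate 2, a peak of 284 bp with a fold of 2.39, at 141 to 142 kb, lay between the wide regions and left a largest gap of 8.88 kb. MDA-MB-231 replicate 2 and Hs578T replicate 1 lacked this peak, and each had 1 gap above the stitching distance there, of 17.1 and 16.7 kb. The sequence covered within the span of the joined cluster was similar with or without it, at 74060, 84482 and 78632 bp (54.3%, 61.9% and 57.6% of the span).

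EXT2, the partner of EXT1 in the polymerase complex, had the lowest mean covered sequence of the 10 members, though its lists overlapped those of EXTL3. The gene is on the plus strand of chromosome 11 (44095648 to 44251962, ENSG00000151348.16). Its promoter peak was 504, 451 and 216 bp wide with a fold of 5.19, 3.79 and 3.62, at percentiles 4.96, 3.41 and 0.249 of width and 17.3, 9.82 and 10.3 of fold. The locus had 2201, 2108 and 2237 covered bases, of which 1697, 1657 and 1543 belonged to a peak at the start of the neighbouring gene ACCS. The subunits of 1 enzyme complex had mean covered sequences of 125627 bp (EXT1) and 2182 bp (EXT2). EXT1 was picked for its stitched cluster in Hs578T, so this contrast follows in part from that choice and is not tested.

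EXTL2, an exostosin-like transferase of the linkage region, had the highest promoter fold of the members. It lies on the minus strand of chromosome 1 (100872372 to 100895179, ENSG00000162694.14). The promoter peak was 3216, 3023 and 3075 bp wide and had a fold of 15.7, 15.1 and 12.1, at percentiles 83.2, 85.4 and 84.6. The start site of SLC30A7, a zinc transporter gene, lies 1248 bp upstream under the same peak, so the signal cannot be assigned to either gene. The locus was otherwise sparse, with 5501, 6321 and 4722 covered bases.

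EXTL3, which adds the first glucosamine that commits the chain to heparan sulfate, was weakly marked. The gene is on the plus strand of chromosome 8 (28600469 to 28756561, ENSG00000012232.10), with its canonical start inside the annotated gene at 28701501. The promoter peak had a fold of 6.71, 5.10 and 4.18 (percentiles 30.6, 22.1 and 17.1) and a width of 2141, 1173 and 1671 bp. A second peak at about 4 kb was the only other in the window, and 2594, 1787 and 2367 bp were covered.

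NDST1 encodes the N-deacetylase/N-sulfotransferase that begins sulfation and lies on the plus strand of chromosome 5 (150485818 to 150558211, ENSG00000070614.15). Its canonical start carried no peak, the nearest lying 2360, 2375 and 2148 bp downstream. The locus was nevertheless the second most covered of the members, with 17, 17 and 21 peaks and 50712, 58288 and 58656 bp (percentiles 98.3, 98.4 and 98.9 of all genes). Within the gene 30.8%, 34.3% and 34.2% of the sequence was covered. When the start sites of all basic transcripts of the annotation were used, NDST1 became marked in every large list, and the region at its RefSeq start (-12.2 to -9.13 kb) had a fold of 7.65, 6.96 and 6.05.

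The strongest region at NDST1 lay at -40.3 to -29.6 kb from the canonical start, outside the gene, with a fold of 26.8, 22.6 and 20 and 9216, 10337 and 10012 covered bases. Its fold was the highest at any member locus in MDA-MB-231 replicate 2. Other regions lay at -24.4 to -17.0 kb (10.4, 10.6 and 7.80) and at 2.15 to 11.2 kb (8.91, 9.12 and 8.73). The window also holds the start sites of CD74, RPS14 and SYNPO, and peaks there made up 14340, 15914 and 16771 of the covered bases.

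HS6ST1, which adds sulfate at the 6 position of glucosamine, had no promoter peak and no tall peak. The gene is on the minus strand of chromosome 2 (128236716 to 128318868, ENSG00000136720.7). The nearest peak lay 3195, 3181 and 3281 bp upstream, was 397, 459 and 281 bp wide, and had a fold of 6.61, 4.14 and 4.30. The highest fold in the window was 6.61, 7.41 and 7.17, and 6851, 9067 and 6802 bp were covered. No start site of another protein-coding gene lay in the window.

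**Figure D3:**
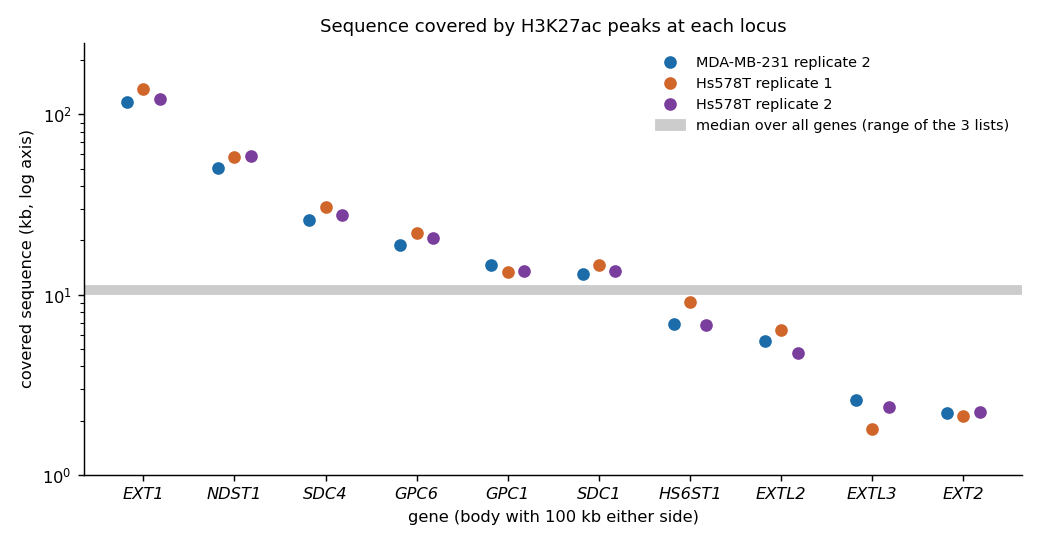
Sequence covered by H3K27ac peaks (kb, log axis) in each gene body with 100 kb on either side, 1 point per large list, with the range of the medians over all protein-coding genes as a grey band (10071 to 11146 bp). EXT1 lies highest at 117022 to 138266 bp, 6 members lie above the band, and HS6ST1, EXTL2, EXTL3 and EXT2 lie below it.

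GPC1, a glypican core protein, had a promoter peak and a taller peak far upstream. The gene is on the plus strand of chromosome 2 (240435663 to 240468076, ENSG00000063660.9). The promoter peak had a fold of 15.0, 11 and 7.99 (percentiles 81.1, 69.6 and 60.8) and a width of 2854, 2705 and 2319 bp. A peak at -66.5 to -64.2 kb was stronger than the promoter in every large list, with a fold of 21.7, 22.7 and 13.9, and a second at -62.6 to -60.6 kb had 13.6, 13.7 and 8.71. The locus had 14667, 13276 and 13590 covered bases. Of these, 6479, 5626 and 5878 lay beyond the 3′ end, in regions at the starts of the neighbouring genes DUSP28 and RNPEPL1. All 6 regions of the locus were called in all 3 large lists, the only locus besides EXTL3 where this held.

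GPC6 is a glypican gene of 1181 kb on the plus strand of chromosome 13 (93226807 to 94408020, ENSG00000183098.12). Its promoter peak was 3286, 4874 and 3218 bp wide with a modest fold of 7.09, 5.15 and 4.68 (percentiles 33.9, 22.6 and 23.7). The tallest peak lay 21.5 to 23.7 kb into the gene, with a fold of 14.1, 12.7 and 14.2. Peaks covered 18753, 21924 and 20710 bp but only 1.49%, 1.66% and 1.68% of the gene, close to the medians of long genes. GPC6 and EXT1 were thus both long genes, with very different shares of acetylated sequence.

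SDC1, a syndecan core protein, had a weak promoter and a strong peak beyond its 3′ end. It lies on the minus strand of chromosome 2 (20200797 to 20225433, ENSG00000115884.11). The promoter peak had a fold of 4.18, 4.98 and 3.45 (percentiles 8.84, 20.9 and 8.25). The peak at 37.8 to 43.3 kb from the start site, outside the gene, was 5443, 5319 and 5213 bp wide with a fold of 25.5, 25.6 and 20.4. This was the highest fold at any member locus in the Hs578T lists. No start site of another protein-coding gene lay in the window, and 12933, 14546 and 13532 bp were covered.

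SDC4, a syndecan of focal adhesions, had the widest promoter peak of the members. The gene is on the minus strand of chromosome 20 (45325288 to 45348424, ENSG00000124145.6). The peak was 7743, 13600 and 8498 bp wide, at percentiles 97.0, 99.1 and 97.6, with a fold of 8.03, 11.1 and 8.28. In Hs578T replicate 1 it ran on to 12336 bp into the gene. The other large lists called a separate peak there, with a fold of 11.4 and 12.2. The width and fold in Hs578T replicate 1 are therefore not those of the promoter alone. Peaks covered 45.8%, 53.3% and 44.3% of the gene, and 26005, 30450 and 27779 bp of the window. The window is dense in genes, with 8 other protein-coding start sites, and the tallest peak in it (15.8, 17.7 and 15.5) lay about 70 kb upstream near PIGT.

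**Figure D4:**
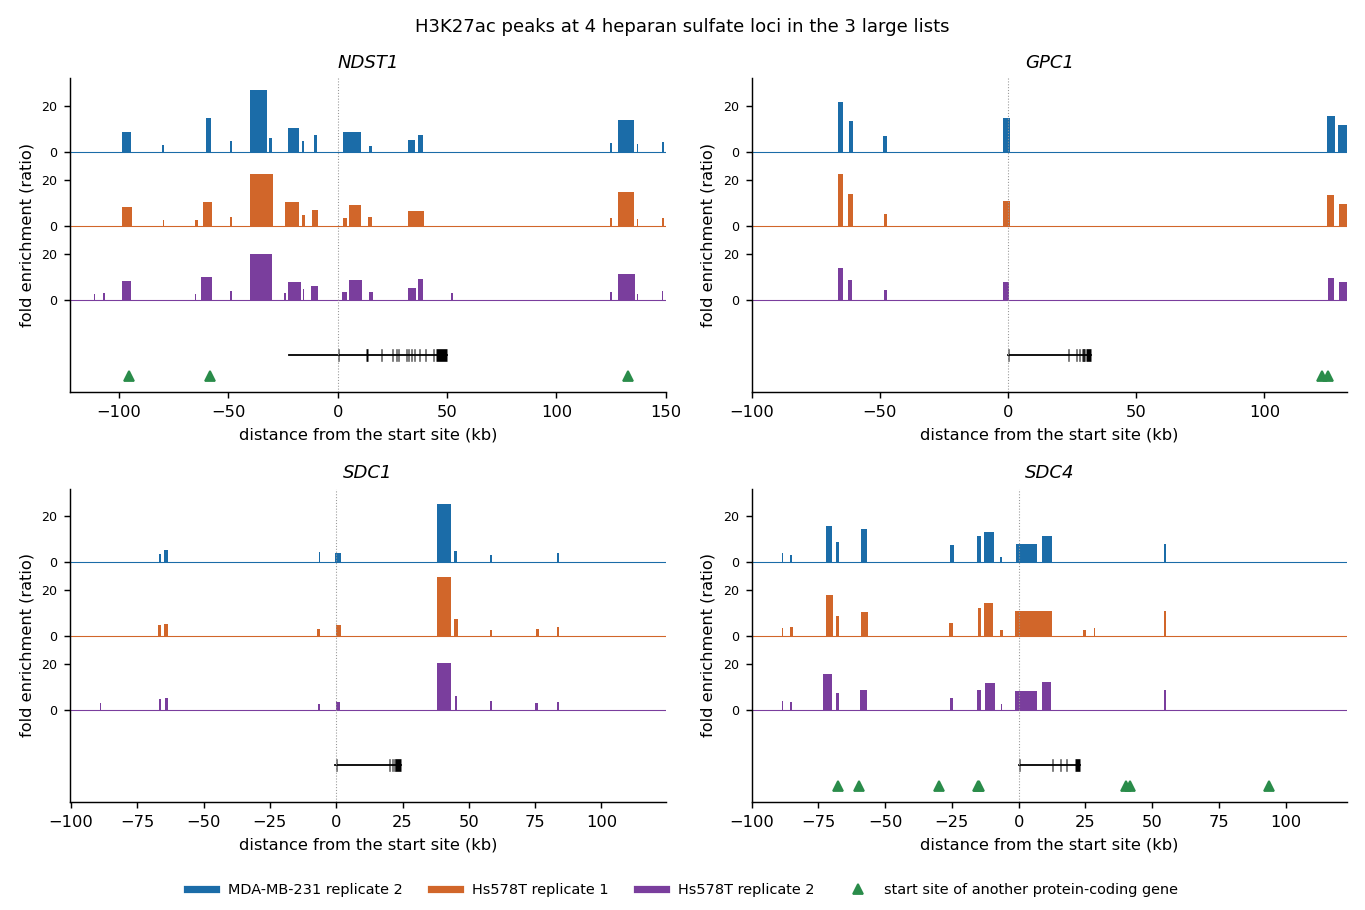
H3K27ac peaks at NDST1, GPC1, SDC1 and SDC4 in the 3 large lists, with distance from the start site in kb on the x axis, fold enrichment (ratio) as bar height, the gene and its exons in black and other protein-coding start sites as green triangles. The tallest peak lies away from the start site at every one of these loci, at -40.3 to -29.6 kb for NDST1 and at 37.8 to 43.3 kb for SDC1.

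Over the 10 loci, 111, 111 and 120 peaks covered 257239, 296033 and 271987 bp (mean 275086 ± 19582, SD, n = 3 lists), and EXT1 alone supplied 45.5%, 46.7% and 44.7%. The median member had 13800, 13911 and 13561 covered bases, against 10071, 11146 and 10133 for all genes. By mean covered bases the order was EXT1, NDST1, SDC4, GPC6, GPC1, SDC1, HS6ST1, EXTL2, EXTL3 and EXT2. Values of the large lists overlapped between GPC1 and SDC1 and between EXTL3 and EXT2, and between no other neighbours in that order. Peaks inside the genes themselves made up 67.1%, 67.3% and 66.0% of the covered bases.

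The large lists differed little at these loci, though slightly more than over all protein-coding gene loci. Of 123 regions, 93 were called in all 3 lists, and the 30 others had a highest fold of 3.98 at most. The genome-wide share of such regions was not computed, so these counts are not read as particular to the loci. The Jaccard index over the 10 loci was 0.763 between MDA-MB-231 replicate 2 and Hs578T replicate 1, 0.746 between MDA-MB-231 replicate 2 and Hs578T replicate 2, and 0.762 between the Hs578T lists (mean 0.757 ± 0.00983, SD over 3 pairs). Over all protein-coding gene loci it was 0.771, 0.760 and 0.780 for the same pairs. For single loci it ranged from 0.540 (HS6ST1 and EXTL3) to 0.894 (GPC1). With MDA-MB-231 replicate 1 it was 0 for each of the others. Covered bases were highest in Hs578T replicate 1 at 6 of the 10 loci, the list with the most covered bases genome-wide (90.7 Mb against 81.8 and 83.9 Mb). The part of list size in this was not tested.

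Across the wider pathway, 40, 41 and 40 of 60 heparan sulfate genes had a promoter peak (mean 40.3 ± 0.577, SD, n = 3), or 66.7%, 68.3% and 66.7%, with the background shares given above. The Wilson intervals began at 54.1%, 55.8% and 54.1%, below those background shares. Without the members the counts were 32, 33 and 32 of 50. In MDA-MB-231 replicate 1 the count was 0 of 60.

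The counts of marked genes are given here by group, and 55.6% of all protein-coding genes were marked in all large lists. Of 13 genes for the linkage region and precursors, 12 were marked in all large lists, the exception being XYLT1, a xylosyltransferase that starts the chain, whereas its paralogue XYLT2 was marked. Of 5 polymerase genes, all but EXTL1 were marked. Of 16 sulfotransferase and epimerase genes, only 5 were marked in all large lists, and 10 in none: NDST1, NDST4, HS6ST1, HS6ST2, HS6ST3, HS3ST2, HS3ST3A1, HS3ST4, HS3ST5 and HS3ST6. The HS6ST genes were thus unmarked throughout. Of 14 core protein genes 10 were marked in all, and GPC2, GPC3, GPC4 and GPC5 in none. Of 12 genes for editing and breakdown 8 were marked in all, and SULF1 and SULF2, the sulfatases that trim sulfate from finished chains, and HPSE2 in none. With 5 to 16 genes a group, these counts carry wide intervals. For sulfotransferase and epimerase genes the interval was 18.5% to 61.4% (6 of 16) in the first 2 large lists, which includes the share of all genes. In Hs578T replicate 2 it was 14.2% to 55.6% (5 of 16), just below the 56.4% of all genes in that list. For linkage and precursor genes (12 of 13) it was 66.7% to 98.6% in each large list, above the shares of all genes. The intervals of the other groups included those shares. No group was tested against another, and the intervals make no allowance for the number of groups compared.

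**Figure D5:**
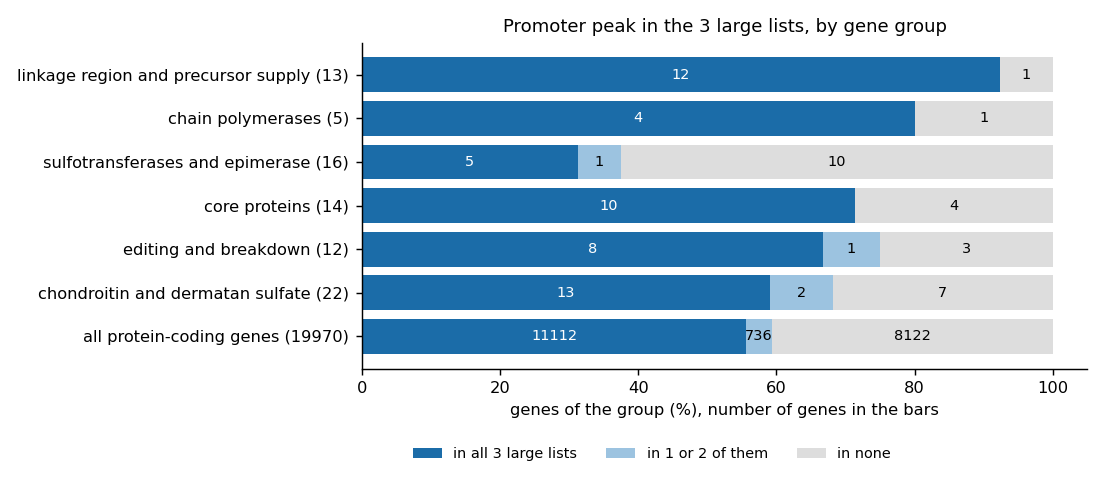
Share of genes (%) with an H3K27ac peak within 1 kb of the canonical start site in all 3, in 1 or 2, or in none of the large lists, by gene group, with gene numbers in the bars. Linkage and precursor genes have 12 of 13 in all lists, sulfotransferase and epimerase genes 5 of 16, and all protein-coding genes 11112 of 19970.

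By the mean over lists, whose scales differ, the highest promoter folds in the pathway were those of FAM20B, the xylose kinase of the linkage region, with 20.4, 15.3 and 11, EXTL2, as given above, and NDST3, an N-deacetylase/N-sulfotransferase, with about 13, 17.9 and 11.7. The order differed between lists: in MDA-MB-231 replicate 2, UGDH, which makes the precursor UDP-glucuronic acid, had 17.9, above EXTL2 and NDST3 (UGDH was named after its values were seen). The most covered bases were found at EXT1, at B3GAT3, the glucuronyltransferase of the linkage region (64274, 72565 and 59983 bp, in a window with 18 other protein-coding start sites), and at NDST1. HS3ST3B1, a 3-O-sulfotransferase, had a promoter peak of fold 3.0 and 5.42 in the first 2 large lists but not in Hs578T replicate 2, where the nearest peak lay 1385 bp away. HPSE, the heparanase that cleaves the chains, had 1 in the Hs578T lists (3.53 and 4.05, 540 and 460 bp wide) and not in MDA-MB-231 replicate 2, where the nearest peak was 21686 bp away. With 1 large list for MDA-MB-231, this cannot be told apart from a difference between libraries.

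Genes for chondroitin and dermatan sulfate, built on the same linkage region, had a promoter peak at 15, 15 and 13 of 22 (mean 14.3 ± 1.15, SD, n = 3), or 68.2%, 68.2% and 59.1%, against 58.1%, 58.2% and 56.4% of all genes. The Wilson intervals (47.3% to 83.6% for 15 of 22 and 38.7% to 76.7% for 13 of 22) include the shares of all genes. CSGALNACT2, which starts these chains, had the highest mean promoter fold (12.2, 13.8 and 11.2), followed by the sulfotransferase CHST15 (13.8, 9.43 and 6.84) and the polymerizing factor CHPF2 (11.2, 7.54 and 6.69). CHST11 (36206, 46291 and 40658 bp), CHSY1 (29318, 35543 and 31884 bp) and CHST15 (27582, 26652 and 24828 bp) had the most covered bases. None of the large lists marked the canonical start of CSGALNACT1, CHST13, CSPG4, DCN, BGN, NCAN or ACAN. With the start sites of all basic transcripts, CSGALNACT1 became marked in every large list. CHST12 and VCAN, the gene of the matrix proteoglycan versican, lacked a promoter peak in Hs578T replicate 2 only. At VCAN a wide peak was present in all large lists, with a fold of 10.1, 11.5 and 10.2, but its edge lay 850, 836 and 1140 bp from the start site, so the 1 kb window decided the call.

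AP-1 is a family of transcription factors formed by FOS and JUN proteins, which the study examined at enhancers. The letters TGACTCA or TGAGTCA (the same site read on either strand) were found in 35.2%, 39.8% and 35.1% of the 88, 88 and 97 distal peaks of the 10 loci (mean 36.7 ± 2.68, SD, n = 3). The Wilson intervals were 26.1% to 45.6%, 30.2% to 50.2% and 26.3% to 45.0%, below the shares of 51.9%, 51.1% and 50.3% over all distal peaks of the same lists. Without EXT1, whose distal peaks led to its choice, the shares were 32.1% (21.1% to 45.5%), 39.3% (27.6% to 52.4%) and 33.3% (22.9% to 45.6%), and in Hs578T replicate 1 the interval then included the share of all distal peaks. At GPC1 the share was 66.7%, from 3 peaks per list. The intervals cover counting error only, and neighbouring peaks are not independent.

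A lower density of the motif was also seen per base. Distal peaks of the 10 loci held 0.290, 0.272 and 0.267 motifs per kb, against 0.473, 0.455 and 0.460 over all distal peaks. EXT1 had 0.236, 0.205 and 0.191, and the 9 other loci together had 0.375, 0.376 and 0.372. Over all distal peaks the density fell with width, from 0.549, 0.524 and 0.530 per kb in peaks of 1 to 2 kb to 0.330, 0.320 and 0.325 in peaks of 5 kb or more. The member loci held 0.285, 0.227 and 0.335 in the first of these classes and 0.266, 0.219 and 0.225 in the other. In peaks of 2 to 5 kb they held 0.271, 0.249 and 0.211, against 0.425, 0.415 and 0.416 over all distal peaks. In peaks under 1 kb they held 0.410, 0.654 and 0.412, against 0.624, 0.613 and 0.611. The density at the member loci was thus not lower in Hs578T replicate 1 for the narrowest peaks. The part of peak width in the lower density was not tested. The tall EXT1 region at 84.8 to 114 kb held 9 motifs, and the region at 151 to 176 kb held 4.

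The motif did occur in several of the strongest distal regions. These windows show the motif nearest to the middle of the strongest distal region that held one outside exons at 4 loci, on the plus strand of hg38 with the motif in capitals. They lie at chr5:150473101-150473167 (NDST1), chr2:240374116-240374182 (GPC1), chr13:93249694-93249760 (GPC6) and chr2:20184294-20184360 (SDC1).
NDST1: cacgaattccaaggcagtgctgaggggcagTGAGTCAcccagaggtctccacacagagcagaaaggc
GPC1: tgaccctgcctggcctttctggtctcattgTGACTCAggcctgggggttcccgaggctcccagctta
GPC6: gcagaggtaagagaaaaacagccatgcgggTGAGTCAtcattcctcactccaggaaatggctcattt
SDC1: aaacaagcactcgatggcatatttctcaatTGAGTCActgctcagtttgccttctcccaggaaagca

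The NDST1 window lies at -35.0 kb, in the tallest region of that locus, which held 3 motifs. The SDC1 window lies 40.8 kb from the start site, in the tallest region there, which held 4. The GPC6 window lies in intron 1, 22.9 kb from the start site, in the tallest peak of that gene. At GPC1 the strongest distal region held none, and the window comes from the second strongest, at -61.5 kb. At HS6ST1 the strongest region with a motif was the sixth by fold, and it is not shown. EXTL2 and SDC4 had no distal region called in all large lists with the motif outside exons, and EXT2 had no distal region called in all of them. At SDC4, 1 distal peak held the motif in each large list. In Hs578T replicate 1 the intronic peak of SDC4 was joined with the promoter peak, so that region did not count as distal. A match is a stretch of letters and does not show that AP-1 was bound.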

How the data were processed

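The authors trimmed reads (Trimmomatic), aligned them to hg38 (Bowtie2), called peaks per library with MACS2 after subtraction of input, and removed blacklisted regions (bedtools). Versions and settings are not given in the sources used here. Each deposited peak has a score (10 times the −log10 q-value without decimals), a fold enrichment (a ratio over local background), and −log10 p and q values, all made by the authors. Read numbers are not in these lists, so sequencing depth is unknown, and weak peaks can appear or vanish with it.

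From the lists, covered bases, promoter peaks, distal clusters, Jaccard indices and motif counts were computed with python 3.11.15, numpy 2.4.6 and pandas 2.3.3, and figures with matplotlib 3.10.9. Interval code was tested on simulated data. Gene positions came from GENCODE release 44 on hg38. Groups were taken from sample titles. No sample is dropped, but means are over the 3 lists with over 10000 peaks. No test was made: with 2 libraries per line, an exact two-sided permutation p cannot fall below 0.333. The study describes its ChIP-seq replicates as biological. Intervals are 95% Wilson intervals. Members, gene lists and markers were chosen with earlier results of these data known. The text names all members, and of the pathway lists the 3 genes with the highest mean promoter fold, the 3 with the most covered bases, unmarked genes and genes marked in some large lists only, and of all genes the 3 next above and below EXT1 in covered bases, of which only 2 exist above.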

Additional observations from a re-analysis of the deposited data

How the results depend on the processing

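Peak lists called per library depend on an unknown depth, so a missing weak peak is not evidence that a mark is absent. No paired analysis was possible because no result comes from a test, and replicate numbers were not known to link the lines. Keeping the 50% of each list with the highest score lowered the mean number of members with a promoter peak from 8 to 5.0: EXT1, EXTL2, GPC1 and SDC4 stayed in every large list. It lowered covered bases to 205378 at the member loci and 95830 at EXT1, raised the share of distal peaks with AP-1 to 50.6% (all distal peaks then 67.8%, 67.5% and 66.7%), and gave a mean Jaccard index of 0.735. With 10 kb flanks the members had 201133 covered bases, an AP-1 share of 41.0% and an index of 0.743. In the central 500 bp of peaks the AP-1 share was 18.3% (all distal peaks 32%, 30.7% and 30.4%). Stitching within 25 kb gave an EXT1 cluster of 309139 bp, within 5 kb 46137 bp, and with the highest-scoring 50% of peaks 46173 bp, against 85250 bp. Chosen after seeing the data, stitching both Hs578T lists together gave 136493 bp, and including MDA-MB-231 replicate 1 in the means gave 206315 bp for the members, 94220 bp for EXT1 and an index of 0.379. Leaving out each replicate in turn gave 264613 to 284010 bp at the members, 119307 to 129929 bp at EXT1, a cluster span of 60254 to 97938 bp (lowest without Hs578T replicate 2), an AP-1 share of 35.1% to 37.5%, an index of 0.746 to 0.763, and 40.0 to 40.5 heparan sulfate and 14.0 to 15.0 chondroitin and dermatan sulfate genes. The mean counts over the other gene lists stayed within 1.5 times their main value, but with the highest-scoring 50% of peaks Hs578T replicate 2 had 7 chondroitin and dermatan sulfate genes against 13. The cause of these shifts was not tested.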
